A study of Homo sapiens with 8 samples.

Results

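The comparison described here is the change in gene expression of T47D cells carrying an inducible hairpin RNA against EglN2 (EglN2 shRNA line) between no doxycycline (day 0) and 48 h of doxycycline (day 2). T47D is a breast carcinoma line that expresses the estrogen receptor. The lentivirus-infected line was measured on 2 arrays at each day, so the comparison uses 4 of the 8 arrays of the series, chosen by their titles, and all 21214 probe sets with a gene name. The other 4 arrays come from a line infected with the Scr control hairpin (Scr line) and sampled at the same days, 2 arrays each, and they are used to show how a gene read when the same doxycycline was given with another hairpin. The labels give doxycycline at 1 ug/ml, and they do not say whether a line was a clone or a pool, nor whether replicate arrays came from separate cultures. The p-values therefore measure only the spread between these arrays, which may be technical. Values are RMA levels on the log2 scale, on which a difference of 1 is a doubling.

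EglN2 (also known as PHD1) belongs to the oxygen-sensing prolyl hydroxylases, which use molecular oxygen and 2-oxoglutarate to hydroxylate proline residues. Hydroxylated alpha subunits of hypoxia-inducible factor (HIF) are recognised by the VHL ubiquitin ligase and degraded. In breast cancer cells EglN2 is known as an estrogen-induced member of the family that supports cyclin D1 levels and proliferation. A hairpin RNA is processed by Dicer into a short RNA that directs Argonaute proteins to matching transcripts, and doxycycline switches the hairpin on.

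Markers of the labelled cell type were measured as a check. Keratin 8 (KRT8), E-cadherin (CDH1) and the luminal transcription factors GATA3 and FOXA1 had mean levels over all 8 arrays of 13.98, 12.47, 12.3 and 11.02. Other luminal markers included KRT18 at 14.1 and XBP1 at 13.12, but also ESR1 at 9.76, TFF3 at 8.71 and TFF1 at 7.92. Markers of other cell types had mean levels from 4.24 (PTPRC) to 7.73 (CD68) for leukocytes, 4.30 (LUM) to 8.68 (COL1A1) for endothelium and fibroblasts and 5.11 (ZEB1) to 9 (TWIST1) for basal and mesenchymal cells. Levels of different probe sets do not compare, so these values do not rank the cell types. Of 11 measured leukocyte markers, 14 endothelial and fibroblast markers and 10 basal and mesenchymal markers, 0 had an unadjusted p under 0.05 in the comparison, and their median changes were 0.005, -0.02 and -0.04.

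EGLN2, the target of the hairpin, read 8.85 and 9.04 at day 0, then 8.26 and 8.29 at day 2. Both day 2 arrays lay below both day 0 arrays, and the level at day 2 was 62.9% of that at day 0. The change was -0.67 (SE 0.11, 95% confidence interval -0.91 to -0.43), which missed the threshold after adjustment (limma, adjusted p = 0.134). In the Scr line the same probe set read 8.97 and 9.0 at day 0, then 8.81 and 8.90 at day 2, a change of -0.13. The read-through transcript RAB4B-EGLN2 is named for this probe set too. The related hydroxylases EGLN1 and EGLN3 and the HIF subunits HIF1A and EPAS1 were among 17 other genes of oxygen sensing, whose median change was -0.005. Of these 17 genes, 0 had an unadjusted p under 0.05, with values from -0.20 (CUL2) to 0.17 (ARNT2).

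ALYREF was the only gene whose change passed the threshold after adjustment in the main limma fit, and its level fell. It encodes an adaptor of the TREX complex, which is loaded on spliced transcripts and hands them to the nuclear export receptor. Its probe set 8019772 read 12.14 and 12.07 at day 0, then 10.74 and 10.89 at day 2, and the second, 8019273, read 12.05 and 12.01 at day 0, then 10.69 and 10.85 at day 2. The groups lay more than 1 log2 unit apart on both probe sets. The changes were -1.29 (SE 0.11) and -1.26 (SE 0.11), with an adjusted p of 0.00506 for each in limma, and the second probe set's day 2 level was 41.8% of that at day 0. In the Scr line the same probe sets gave -0.06 and -0.07. The difference of the changes between the lines was -1.23 and -1.20, and it did not pass its own test (limma, adjusted p = 0.165 for each). In bulk RNA, fewer cells of a type and less RNA per cell cannot be told apart. Leaving out 1 array of this line ended the call in limma for day 0 replicate 1 (adjusted p = 0.138), day 0 replicate 2 (adjusted p = 0.0716) and day 2 replicate 1 (adjusted p = 0.0545), where the changes still lay between -1.37 and -1.18 over all arrays left out in turn. It was also lost when the 4 arrays of the line were fitted alone (adjusted p = 0.198) or when probe sets without a gene name were tested too (adjusted p = 0.0812), both in limma.

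**Figure D1:**
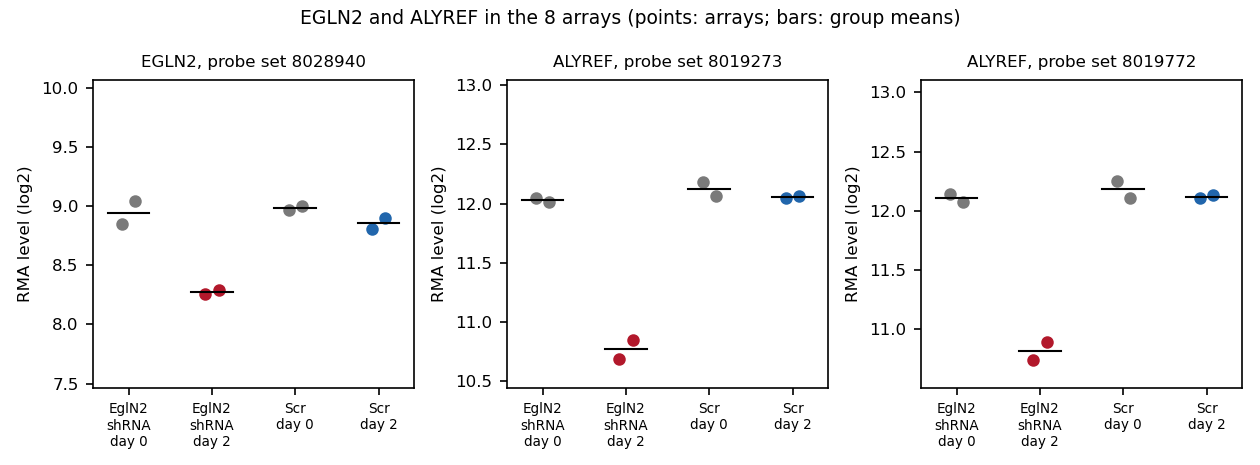
RMA level (log2) of EGLN2 and of the 2 ALYREF probe sets on each of the 8 arrays, with 2 points per group and a bar at the group mean. ALYREF sits between 10.69 and 10.89 on the day 2 arrays of the EglN2 shRNA line and between 12.01 and 12.25 on the other 6 arrays.

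Over all genes the comparison was a narrow one in the main fit, which has no replicate block. The 2 ALYREF probe sets were the only ones past an adjusted p of 0.05 (limma, 0.00943% of 21214), both lower. With the replicate number as a block in limma 13 probe sets passed, 3 higher and 10 lower. An unadjusted p under 0.05 was reached by 2.73% of probe sets on the higher side and 3.04% on the lower side. The change had an SD of 0.16 over all probe sets, 87 were at 0.5 or above and 129 at -0.5 or below. The Scr line, by comparison, had an SD of 0.21, with 392 probe sets at 0.5 or above and 98 at -0.5 or below. The day 2 arrays of the EglN2 shRNA line differed from each other more than the replicates of the other groups did: 1296 probe sets differed by 0.5 or more between them, against 407 at day 0 of the line and 304 and 804 in the Scr groups.

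Genes of the amino acid stress response were on the higher side at day 2. In this pathway, kinases that sense uncharged tRNA or other stress phosphorylate the initiation factor eIF2alpha, which lowers general translation and favours translation of ATF4. ATF4 then switches on enzymes that make serine, asparagine and one-carbon units, amino acid transporters and tRNA synthetases. Of 42 measured genes of the pathway, 35 had a positive change (50.5% of all genes), and the median was 0.22 against 0.005 over all 18417 genes. An unadjusted p under 0.05 on the higher side was reached by 19 of the 42 (2.87% of all genes) and on the lower side by 0 (3.1%), and 26 had both day 2 arrays above both day 0 arrays (15.5%). None passed the adjusted threshold. In the Scr line the same genes had a median of 0.19, with 33 of 42 positive (47.5% of all genes there).

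The binding letters of ATF4 are shown for every member of the amino acid stress and cytosolic synthetase lists that holds them in a RefSeq promoter, because 6 of the 16 cytosolic tRNA synthetase promoters in the RefSeq table and 7 of the 35 amino acid stress promoters hold them. The letters searched were TGATGNAA on either strand (its reverse complement is TTNCATCA), in the window from 250 bases before to 50 bases after the gene start. They are found in 2.54% of the 14239 promoters of genes measured here. The asparagine synthetase (ASNS) promoter lies at chr7:97872359-97872658 of GRCh38.p14, minus strand, and is printed whole, in the direction of the gene, with the matching letters in capitals.
ASNS: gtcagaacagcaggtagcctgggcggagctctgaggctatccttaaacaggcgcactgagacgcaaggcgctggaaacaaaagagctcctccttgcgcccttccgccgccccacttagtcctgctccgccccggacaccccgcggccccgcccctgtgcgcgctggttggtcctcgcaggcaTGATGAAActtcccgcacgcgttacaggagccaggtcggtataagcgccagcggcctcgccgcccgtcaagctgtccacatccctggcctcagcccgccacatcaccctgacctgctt
For the other genes 40 bases around the match are given, again in the direction of the gene. CHAC1 is at chr15:40953246-40953285 (plus strand), MTHFD1L at chr6:150866341-150866380 (plus), ATF3 at chr1:212565200-212565239 (plus), PPP1R15B at chr1:204412021-204412060 (minus), GOT1 at chr10:99430799-99430838 (minus) and FGF21 at chr19:48755454-48755493 (plus). The synthetase windows are AARS1 at chr16:70289670-70289709 (minus), CARS1 at chr11:3057402-3057441 (minus), IARS1 at chr9:92293687-92293726 (minus), MARS1 at chr12:57488048-57488087 (plus), NARS1 at chr18:57621799-57621838 (minus) and TARS1 at chr5:33440951-33440990 (plus).
CHAC1: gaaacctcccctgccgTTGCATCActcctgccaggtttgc
MTHFD1L: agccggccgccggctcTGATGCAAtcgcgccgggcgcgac
ATF3: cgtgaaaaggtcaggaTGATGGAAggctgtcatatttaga
PPP1R15B: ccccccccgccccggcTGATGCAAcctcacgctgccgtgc
GOT1: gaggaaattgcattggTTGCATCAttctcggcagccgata
FGF21: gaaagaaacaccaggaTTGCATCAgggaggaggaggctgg
AARS1: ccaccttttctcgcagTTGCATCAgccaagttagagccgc
CARS1: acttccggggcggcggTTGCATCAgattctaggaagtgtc
IARS1: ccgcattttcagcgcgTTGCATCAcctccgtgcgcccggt
MARS1: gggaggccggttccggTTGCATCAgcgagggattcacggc
NARS1: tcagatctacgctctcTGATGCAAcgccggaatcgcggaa
TARS1: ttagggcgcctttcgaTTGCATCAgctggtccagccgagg
CHAC1, GOT1, FGF21, AARS1, CARS1, IARS1, MARS1 and TARS1 hold the same 8 letters, TTGCATCA, which MTHFD1L, PPP1R15B and NARS1 carry on the opposite strand as TGATGCAA. ASNS has the form TGATGAAA and ATF3 TGATGGAA. A match is a description of these letters and does not show binding.

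Among the regulators of the pathway, ATF4 itself read 11.51 and 11.56 at day 0, then 12.03 and 12 at day 2, a change of 0.48 (SE 0.11). Its second probe set gave 0.34. DDIT3, the partner factor CHOP that accompanies prolonged stress, was positive on both day 2 arrays, at 0.57 and 0.25. NUPR1, a small stress-induced chromatin protein, read 11.26 and 11.13 before and 11.95 and 11.79 after doxycycline. The eIF2alpha kinases and their phosphatase subunits were spread around 0, from -0.08 to 0.24 over 6 genes, with 0 at an unadjusted p under 0.05. ATF5 and PPP1R15A, which the same pathway is known to induce, had negative values of -0.30 and -0.08.

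Among the enzymes, ASNS, which makes asparagine from aspartate, read 9.35 and 9.46 at day 0, then 10.35 and 10.40 at day 2, a change of 0.97 (SE 0.19). PSAT1, the transaminase of serine synthesis, read 10.26 and 10.47 before and 11.29 and 11.01 after. Its pathway neighbours PHGDH, which takes the first step, and PSPH, which takes the last, had changes of 0.47 and 0.38. ALDH1L2, a mitochondrial enzyme of folate metabolism that releases carbon dioxide and NADPH, read 8.46 and 8.57 at day 0, then 9.35 and 9.57 at day 2. The mitochondrial one-carbon enzymes SHMT2 (0.34), MTHFD2 (0.31) and MTHFD1L (0.32) were positive on both day 2 arrays, while the cytosolic MTHFD1 (-0.16) and TYMS (-0.11), which makes thymidylate, were negative. PCK2, the mitochondrial form of phosphoenolpyruvate carboxykinase, read 8.14 and 8.27 at day 0, then 8.84 and 8.71 at day 2. Both day 2 arrays lay above both day 0 arrays for ASNS, PSAT1, ALDH1L2 and PCK2 (15.5% of all genes). These genes are among those named below for having no overlap between the days, so this was fixed by the choice.

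Outputs of the pathway outside metabolism were mixed. STC2, a secreted glycoprotein, read 10.54 and 10.43 at day 0, then 11.28 and 11.05 at day 2. CHAC1, which breaks down glutathione, read 7.51 and 7.42 before and 8.18 and 7.90 after, a change of 0.57 against 0.18 in the Scr line. TRIB3, an ATF4 target that feeds back on the pathway, had a change of 0.03, and FGF21, a stress hormone, of 0.01. CBS, the first enzyme of transsulfuration, was read by a probe set that also names LOC102724560. It read 8.39 and 8.35 at day 0, then 9.29 and 9.21 at day 2, and its adjusted p of 0.0505 in limma was the nearest to the threshold outside ALYREF. The change of the CBS probe set was 0.88 in this line and 0.46 in the Scr line.

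**Figure D2:**
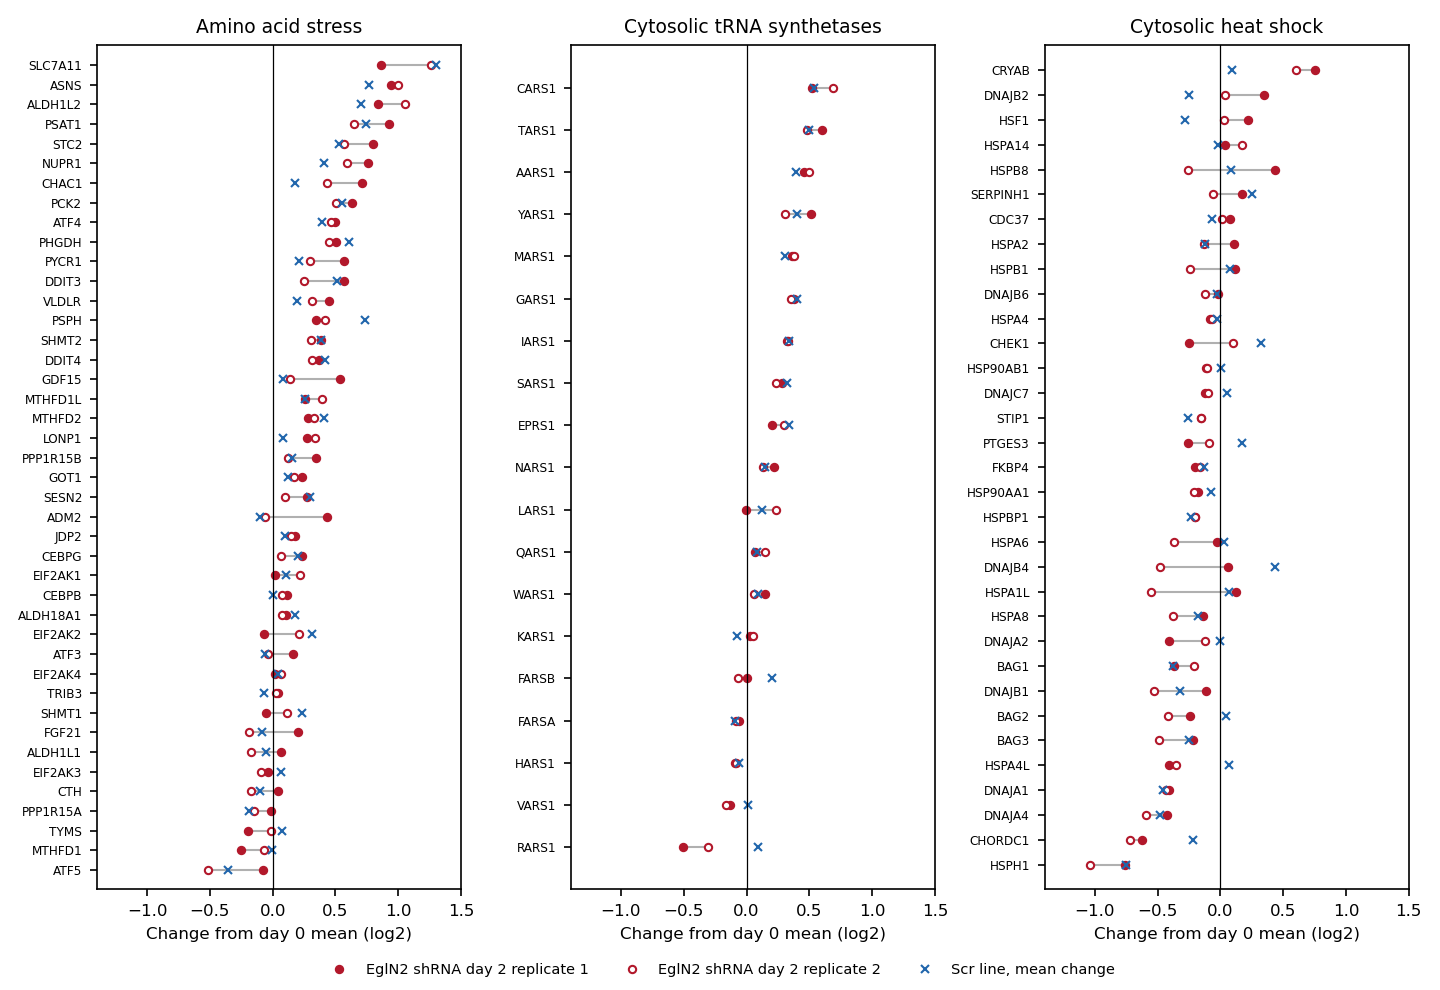
Change from the day 0 mean (log2, x axis) of every measured gene of the amino acid stress, cytosolic tRNA synthetase and cytosolic heat shock lists, with filled and open circles for day 2 replicates 1 and 2 of the EglN2 shRNA line and a cross for the Scr line's mean change. Most stress genes and synthetases lie right of 0 with circles and crosses near each other, RARS1 lies left of 0 with its cross at 0.10, and 26 of 33 heat shock genes lie left of 0.

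Cytosolic tRNA synthetases charge tRNAs with their amino acids, and several are known ATF4 targets. Of 19 measured, 14 had a positive change (50.5% of all genes), 9 of them with an unadjusted p under 0.05 (2.87%), and the median was 0.17 (0.20 in the Scr line). CARS1, for cysteine, read 9.70 and 9.87 at day 0, then 10.31 and 10.47 at day 2. TARS1, for threonine, read 11.19 and 11.29 before and 11.84 and 11.72 after, and AARS1, for alanine, read 11.94 and 12 before and 12.43 and 12.47 after. All 6 synthetases with the letters in their promoter had positive changes with a median of 0.42, and the 10 without them had a median of 0.07, where the Scr line gave 0.36 and 0.10. Among the amino acid stress genes the 7 with the letters had a median of 0.23 and the 28 without them of 0.15, and the 7 ran from 0.01 (FGF21) and 0.07 (ATF3) through GOT1 (0.20) and PPP1R15B (0.23) to ASNS. RARS1, for arginine, went the other way: it read 11.95 and 12.02 at day 0, then 11.48 and 11.68 at day 2, a change of -0.41 (SE 0.11), where the Scr line gave 0.10. The 16 measured mitochondrial synthetases had a median of -0.03. One of them, YARS2 for mitochondrial tyrosyl-tRNA, read 9.24 and 9.21 at day 0, then 8.69 and 8.59 at day 2, a change of -0.59 (SE 0.13) against 0.30 in the Scr line.

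Amino acid transporters were less uniform, with 14 of 21 positive and a median of 0.08. SLC7A11, which imports cystine in exchange for glutamate, had the largest change of any stress gene at 1.06, but its day 0 arrays lay apart (7.91 and 8.51, against 9.07 and 9.47 at day 2), and the SE was 0.34. SLC43A1, a carrier of branched-chain and other neutral amino acids, read 7.21 and 7.38 before and 7.96 and 8.02 after, with a change of 0.25 in the Scr line. SLC6A9, a glycine transporter, gave 0.57. SLC7A5, the exchanger for large neutral amino acids, read 12.52 and 12.38 at day 0, then 12.17 and 11.89 at day 2, a change of -0.42, and -0.45 in the Scr line.

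The 20 genes with the largest positive moderated t and no overlap between the days were read next in the Scr line. The Scr line's changes did not enter the choice, but the spread of its arrays did, since limma pools the spread of all 8 arrays into the SE of both lines, so genes with a small SE in one have it in the other and the counts of p-values are no independent support. All 20 had a positive change there and 19 an unadjusted p under 0.05 on the higher side (7.49% of all probe sets). Their median was 0.71 in the EglN2 shRNA line and 0.55 in the Scr line. Beside 8 of the amino acid genes above (ALDH1L2, NUPR1, STC2, PCK2, CARS1, PSAT1, ASNS and SLC43A1) the 20 held genes of other kinds. PYGL, the glycogen phosphorylase of liver, read 8.88 and 9.07 at day 0, then 9.71 and 9.99 at day 2, with a change of 0.98 in the Scr line. ITGA5, the integrin subunit of the fibronectin receptor, had the largest t: it read 7.57 and 7.55 before and 8.30 and 8.48 after, a change of 0.83 (limma, adjusted p = 0.114) against 0.37 in the Scr line. SERPINA1, the protease inhibitor alpha-1 antitrypsin, read 9.28 and 9.14 before and 10.07 and 9.89 after. The serine protease PRSS8 (0.64), the Rac regulator ARHGAP15 (0.82), the acyltransferase PLAAT2 (0.88), the histone demethylase KDM4D (0.58), the melanosomal protein TYRP1 (0.72), the cytokine TNFSF15 (0.60), ANKFN1 (0.76) and the natural killer cell ligand ULBP1 (0.66) make up the rest with CRYAB. CRYAB, a small heat shock protein, was the one of the 20 with an unadjusted p above 0.05 in the Scr line, at 0.10 there and 0.68 here. It read 5.90 and 5.81 at day 0, then 6.61 and 6.46 at day 2.

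The 20 probe sets with the largest negative moderated t and no overlap were read in the Scr line in the same way. Their median was -0.75 in the EglN2 shRNA line and -0.03 in the Scr line, where 13 of the 20 lay within 0.15 of 0, 4 had an unadjusted p under 0.05 on the lower side (5.36% of all probe sets) and 1 on the higher side. The difference between the lines had an unadjusted p under 0.05 for 18 of the 20, but it contains the change that chose them, and none passed after adjustment. Of the 20 probe sets 2 are ALYREF.

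**Figure D3:**
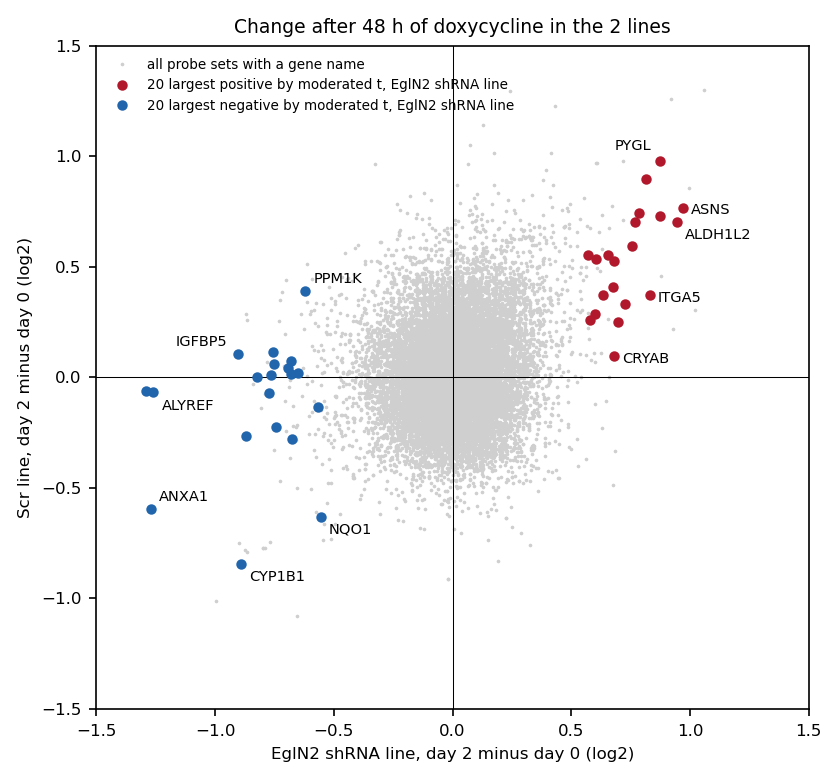
Change from day 0 to day 2 (log2) in the EglN2 shRNA line (x axis) and the Scr line (y axis) for 21214 probe sets in grey, with the 20 largest positive and 20 largest negative by moderated t in the EglN2 shRNA line in red and blue. All 20 red points lie above 0 on the y axis, and 13 of the 20 blue points lie within 0.15 of 0 on it. Across all probe sets the changes of the 2 lines, which share no array, correlated at r = 0.15, given as a description.

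Among these negative genes several act on RNA in the nucleus. EXOSC7, a ring subunit of the RNA exosome that degrades RNA from its end, read 9.01 and 8.99 at day 0, then 8.24 and 8.4 at day 2, a change of -0.68 (SE 0.11) against 0.08 in the Scr line. HNRNPM, a splicing regulator, read 12.32 and 12.30 before and 11.72 and 11.77 after, and CDC5L, a core factor of the spliceosome, read 10.44 and 10.42 before and 9.61 and 9.89 after. Their changes in the Scr line were -0.14 and 0.02. The lists that hold ALYREF, EXOSC7 and HNRNPM read near 0. Over all genes 3.1% had an unadjusted p under 0.05 on the lower side. ALYREF was the one of 29 measured mRNA export genes with an unadjusted p under 0.05, EXOSC7 the one of 16 exosome genes and HNRNPM the one of 28 SR protein and hnRNP genes, a list that does not hold CDC5L or other spliceosome factors, and the medians of these lists were -0.03, -0.03 and -0.04. The other 28 export genes lay between -0.14 (SEM1) and 0.19 (SARNP), with THOC5, a subunit of the THO complex that ALYREF binds, at 0.16. RNPS1, of the exon junction complex, had a change of -0.24 against 0.05 in the Scr line.

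Other members of the negative group belong to the cytoskeleton, membranes and cell cycle. ANXA1, a calcium-dependent membrane-binding protein, read 8.11 and 7.80 at day 0, then 6.56 and 6.81 at day 2, a change of -1.27 (SE 0.20), with -0.60 in the Scr line. CAPZA1, which caps actin filaments, read 9.23 and 9.31 before and 8.51 and 8.52 after, with 0.12 in the Scr line. CDK2AP1, a binding partner of the kinase CDK2, read 11.36 and 11.48 before and 10.69 and 10.65 after, with 0.06 in the Scr line. IGFBP5, a secreted binding protein of insulin-like growth factors, read 10.99 and 11.26 at day 0, then 10 and 10.44 at day 2, a change of -0.91 against 0.11 in the Scr line. The other 14 measured genes of the IGF axis had 0 members at an unadjusted p under 0.05. The remaining probe sets, with no overlap between the days, were MPZL3 (-0.78), CPNE3 (-0.70), the autophagy factor WDR45B (-0.77), the lipid-binding protein OSBPL2 (-0.65), LRRIQ4 (-0.83) and CCDC86 (-0.68).

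In the mitochondria, PPM1K of the negative group and BCKDK are the phosphatase and the kinase that switch the branched-chain keto acid dehydrogenase on and off, and BCKDHB is a subunit of that enzyme. BCKDK read 9.28 and 9.46 at day 0, then 8.67 and 8.87 at day 2, and BCKDHB read 9.50 and 9.46 before and 8.79 and 9.04 after. Their changes of -0.60 (SE 0.12) and -0.57 (SE 0.12) stood against 0.29 and 0.23 in the Scr line. PPM1K was read by 2 probe sets that differ: 8101699 read 8.10 and 8.15 before and 7.46 and 7.55 after, a change of -0.62, and 8101701 gave -0.19. Of the other 21 measured genes of branched-chain amino acid breakdown 15 were positive, among them ACAD8 (0.29) and PCCB (0.25), and 6 negative, among them HIBCH (-0.23) and DBT (-0.05), another subunit of the dehydrogenase. Its subunits BCKDHA (0.145) and DLD (0.185) were among the positive genes, with 0.215 and 0.395 in the Scr line. The 24 genes had a median of 0.09 here and 0.26 in the Scr line.

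MRPS33, of the small subunit of the mitochondrial ribosome, read 8.97 and 8.73 at day 0, then 7.81 and 8.15 at day 2, a change of -0.87 against -0.27 in the Scr line. Of the 72 measured mitochondrial ribosomal proteins 2 had an unadjusted p under 0.05, MRPS33 and MRPL35 (-0.36), both lower and near the 3.1% of all genes, and the median was -0.02. Respiratory chain subunits had 0 of 69 at that level and a median of 0.03. Mitochondrial chaperones split. GRPEL1, the nucleotide exchange factor of mitochondrial HSP70, read 10.36 and 10.38 before and 9.93 and 9.84 after, a change of -0.49, while its paralog GRPEL2 (0.37), the HSP90 form TRAP1 (0.41) and the protease LONP1 (0.30) were positive.

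Cytosolic chaperones of the heat shock response, which the factor HSF1 switches on and which fold and protect proteins, were on the lower side. Of 33 measured, 26 had a negative change (47.9% of all genes). An unadjusted p under 0.05 was reached by 8 on the lower side (3.1% of all genes) and by 1, CRYAB, on the higher side (2.87%). Both day 2 arrays lay below both day 0 arrays for 18 of them (16% of all genes). The list median was -0.18, at -0.12 and -0.20 for the 2 day 2 arrays, and -0.03 in the Scr line. HSPH1, a large HSP70-related exchange factor, read 11.46 and 10.96 at day 0, then 10.45 and 10.17 at day 2, a change of -0.90 (SE 0.21), with -0.75 in the Scr line. CHORDC1, a cochaperone of HSP90, read 11.09 and 10.99 before and 10.42 and 10.32 after, with -0.22 in the Scr line. DNAJA1, an HSP40 partner of HSP70, read 10.89 and 10.64 before and 10.36 and 10.33 after, with -0.46 in the Scr line. BAG2 and HSPA4L had changes of -0.33 and -0.38, against 0.05 and 0.07 in the Scr line. The inducible HSP70 genes HSPA1A and HSPA1B share 5 probe sets, which gave -0.88 to -0.79 here and -0.79 to -0.77 in the Scr line. One of the shared sets read 13.11 and 12.65 at day 0, then 12.34 and 11.69 at day 2.

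The binding letters of HSF1 are shown for CHORDC1 and DNAJA1, which had the second and the fourth smallest p on the lower side of the list. The letters searched were GAA, any 2 bases, TTC, any 2 bases and GAA, or the reverse complement of this run on the other strand, and they were found in 6 of 29 heat shock promoters and in 0.407% of the 14239 promoters of measured genes. CHORDC1 holds 3 overlapping matches, at chr11:90223079-90223118 (GRCh38.p14, RefSeq, minus strand), and DNAJA1 holds 1, at chr9:33025262-33025301 (plus strand), with capitals as before.
CHORDC1: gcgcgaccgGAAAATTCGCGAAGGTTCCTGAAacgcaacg
DNAJA1: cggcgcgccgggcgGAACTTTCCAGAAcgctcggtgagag
The 6 genes with the letters had a median change of -0.23 and the 23 without them of -0.20, where the Scr line gave -0.10 and -0.03. The genes with the letters that are not printed were HSPA8 (-0.255), HSPA6 (-0.2), DNAJB6 (-0.07) and SERPINH1 (0.055). In the endoplasmic reticulum, DNAJC10, a disulfide reductase that helps degrade misfolded proteins, read 9.95 and 9.90 at day 0, then 9.23 and 9.46 at day 2, a change of -0.58 against 0.25 in the Scr line. DNAJC3, a cochaperone that also inhibits eIF2alpha kinases, had -0.40 against 0.20, and the 20 measured chaperones of that compartment had a median of 0.03.

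Antioxidant genes controlled by NRF2 and genes of the aryl hydrocarbon receptor had some of the clearest negative members. NQO1, a quinone reductase that both factors induce, read 12.60 and 12.55 at day 0, then 12.07 and 11.97 at day 2, with -0.63 in the Scr line. CYP1B1, an oxidising enzyme induced by the aryl hydrocarbon receptor, read 11.14 and 10.86 before and 9.96 and 10.26 after, with -0.85 in the Scr line. GCLM, the regulatory subunit of glutathione synthesis, read 7.58 and 7.63 before and 6.81 and 6.91 after, a change of -0.74 against -0.23 in the Scr line. Of 30 measured NRF2 targets 21 had a negative change and the median was -0.07, with 3 lower (3.1% of all genes) and 1 (SLC7A11, also an ATF4 target) higher (2.87%) at an unadjusted p under 0.05. Of 8 genes of the aryl hydrocarbon receptor 6 were negative, with a median of -0.24 here and -0.20 in the Scr line.

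HIF targets, the genes through which a loss of prolyl hydroxylation is best known, were mostly positive but differed between the day 2 arrays. Of 29 measured, 21 had a positive change (50.5% of all genes) and 8 an unadjusted p under 0.05, all 8 higher (2.87%), with a median of 0.16. That median was 0.25 for day 2 replicate 1 and 0.08 for replicate 2, and 0.07 in the Scr line. NDRG1, a stress-responsive protein much used as a hypoxia marker, read 8.52 and 8.24 at day 0, then 10.14 and 8.66 at day 2, so its change of 1.02 (SE 0.39) was 1.76 on day 2 replicate 1 and 0.28 on replicate 2. PDK1, the kinase that restrains pyruvate dehydrogenase, read 8.95 and 9.16 before and 9.57 and 9.52 after, and had 0.69 in the Scr line. The collagen prolyl hydroxylases P4HA1 (0.43) and P4HA2 (0.30), the angiogenic factor VEGFA (0.35) and the mitophagy receptor BNIP3 (0.28) were positive on both day 2 arrays. In the Scr line these 4 genes gave 0.53, 0.63, 0.14 and 0.15.

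Glycolysis did not follow as a block, with 13 of 21 positive and a median of 0.07. ALDOC, an aldolase, read 9.89 and 9.76 at day 0, then 10.61 and 10.54 at day 2, a change of 0.75 against 0.60 in the Scr line. HK2, the hexokinase that traps glucose in the cell, read 8.77 and 8.91 before and 8.4 and 8.31 after, a change of -0.48 against -0.20. The glucose transporter SLC2A1 had -0.25. In glycogen metabolism GBE1, the branching enzyme, read 9.10 and 9.03 before and 8.65 and 8.76 after, a change of -0.36 opposite in sign to that of PYGL, with 0.13 in the Scr line.

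Genes of cell division were on the lower side in the EglN2 shRNA line and on the higher side in the Scr line. Of 50 measured mitosis genes 41 had a negative change here (47.9% of all genes), with a median of -0.10. In the Scr line 48 of the 50 had a positive change (47.5% of all genes there), with a median of 0.28. The median in the EglN2 shRNA line was -0.19 on day 2 replicate 1 and -0.005 on replicate 2. The Scr median is not split by array, and the Scr day 0 arrays differed by 0.5 or more on 804 probe sets. In the cyclin D axis, Scr day 0 replicate 1 was the lowest Scr array for CCNE2 (9.52, replicate 2 10.18) and RB1 (9.36, replicate 2 9.83). It was not for E2F2 (8.19, replicate 2 8.14), and the 2 Scr day 0 arrays read the same for CDKN1B (8.66) and CCND1 (10.79). These are examples picked from another list, and what the difference between the Scr day 0 arrays means for the mitosis genes was not tested. The difference of the changes had a median of -0.35 over the 50 genes, and 20 of them had an unadjusted p under 0.05 for it (7.23% of all genes), with 0 past adjustment. SPC25, a kinetochore subunit, read 9.42 and 9.30 at day 0, then 8.85 and 8.98 at day 2, with 0.28 in the Scr line. SKA1, which holds kinetochores to microtubules, had -0.38 against 0.35, and the phosphatase CDC25B, which starts mitosis, -0.41 against 0.03.

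The replication genes read similarly. Of 42 measured, 29 had a negative change (47.9% of all genes), 4 of them with an unadjusted p under 0.05 (3.1%), and the median was -0.07 against 0.15 in the Scr line. All 12 licensing factors were negative. CDT1, which loads the replicative helicase, read 9.40 and 9.78 at day 0, then 9.06 and 9.10 at day 2. RRM2, a subunit of ribonucleotide reductase, read 10.13 and 10.05 before and 9.57 and 9.69 after. CLSPN, a checkpoint adaptor at replication forks, read 9.22 and 9.45 before and 8.41 and 8.89 after, and its second probe set gave -0.50. The 3 D cyclins, which drive entry into the cycle, lay between -0.14 (CCND1) and -0.05, and cyclin E1 (CCNE1) had -0.29. Replication-dependent histones had a median of 0.01 with -0.08 and 0.11 for the 2 day 2 arrays.

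Proteasome subunits, which degrade ubiquitin-tagged proteins, had small values, mostly negative. Of 37 measured, 31 were negative (47.9% of all genes), 17 with both day 2 arrays below both day 0 arrays (16%), but 0 had an unadjusted p under 0.05, and the median was -0.07 (0.07 in the Scr line). All 14 measured members of the 19S cap were negative, from -0.34 (PSMC6) to -0.05. MYC, the transcription factor of growth and ribosome production, read 9.88 and 9.79 at day 0, then 9.54 and 9.07 at day 2, a change of -0.53 against -0.57 in the Scr line. UTP20, a factor of small ribosomal subunit assembly, had -0.47, and the 31 measured genes of MYC and ribosome biogenesis had a median of -0.05.

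The ID proteins, inhibitors of basic helix-loop-helix factors that BMP signalling induces, were negative in all 4 members, with a median of -0.46. ID1 read 9.03 and 9.18 at day 0, then 8.49 and 8.54 at day 2, a change of -0.59 against -0.16 in the Scr line. ID3 read 8.66 and 8.53 before and 7.89 and 8.13 after, with -0.33 in the Scr line. TIMP1, an inhibitor of matrix metalloproteinases, read 8.97 and 8.89 before and 8.41 and 8.35 after, with -0.39 in the Scr line. The SMAD factors and receptors of the same pathways included positive members, SMAD3 (0.34) and TGFBR1 (0.33), and the whole list of 33 had a median of -0.06.

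Estrogen response genes were divided. Of 28 measured, 14 were positive and 14 negative, and the median was 0.03. An unadjusted p under 0.05 was reached on the lower side by TFF1, ADCY9, OLFM1, CXCL12 and ESR1 on 1 probe set (3.1% of all genes). On the higher side SERPINA1 and STC2 reached it (2.87%). PGR and GREB1 had changes of -0.025 and -0.01. ESR1, which encodes the estrogen receptor, read 9.76 and 9.84 at day 0, then 9.50 and 9.57 at day 2 on 1 of its probe sets and gave 0.04 on the other. TFF1, a secreted peptide classically induced by estrogen, read 7.99 and 8.29 before and 7.48 and 7.72 after, a change of -0.54 against -0.67 in the Scr line. CXCL12 (-0.39) and OLFM1 (-0.45) were also negative in both lines. SERPINA1 (0.77) and STC2 (0.68), which are on the same list, were positive in both, with 0.7 and 0.525 in the Scr line. Luminal markers had a median of -0.10, with KRT7, a keratin of glandular epithelium, at -0.31 here and -0.57 in the Scr line.

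Genes that respond to double-stranded RNA were examined because a hairpin is itself an RNA duplex. Of 33 measured genes of this response and of interferon 23 had a positive change (50.5% of all genes), 2 with an unadjusted p under 0.05 (2.87%). The median of the 33 was 0.09 here and 0.17 in the Scr line. IFIT2, an interferon-induced protein that blocks translation, read 5.24 and 5.2 at day 0, then 5.85 and 5.54 at day 2, with 0.43 in the Scr line, and DHX58, a sensor of RNA duplexes, had 0.53 against 0.29. Of 13 genes that process or use small RNAs, AGO2, the Argonaute that cuts its targets, had an unadjusted p under 0.05 on the higher side (2.87% of all genes). It read 9.89 and 10.01 before and 10.26 and 10.26 after, with -0.10 in the Scr line. In lipid synthesis, 5 of 30 genes had an unadjusted p under 0.05, all on the higher side (2.87% of all genes), among them the desaturases SCD (0.42) and FADS1 (0.33) and the sterol regulator SREBF2 (0.31). In the Scr line SCD, FADS1 and SREBF2 gave 0.33, 0.56 and 0.09.

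The lists not yet described had medians between -0.08 and 0.08. Over all genes an unadjusted p under 0.05 was reached by 2.87% on the higher side and 3.1% on the lower side. A single such member in a list of 16 or 25 is near these shares. The chaperonin, which folds actin and tubulin, had 11 of 14 members negative and a median of -0.08, with 0 at an unadjusted p under 0.05. Immediate-early genes, which answer growth signals within minutes, had a median of -0.05 over 23 members and 3 of them on the lower side at that level, IER3 (-0.37), IER5 (-0.31) and the phosphatase DUSP5 (-0.27). The p53 and apoptosis genes had a median of 0.06 over 31 members, with PMAIP1, a promoter of cell death, at 0.41 and BNIP3 at that level. Of 16 integrins ITGA5 alone had an unadjusted p under 0.05, and of 25 listed autophagy genes, which do not include WDR45B, the cargo receptor SQSTM1 (-0.12 and -0.42 on the day 2 arrays). The 16 genes of protein phosphatase 1 had 1 such member, the nuclear targeting subunit PPP1R10 at 0.30, and the cyclin D axis had CCNE1 and FOXO4, a transcription factor that opposes growth, at 0.38.

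**Figure D4:**
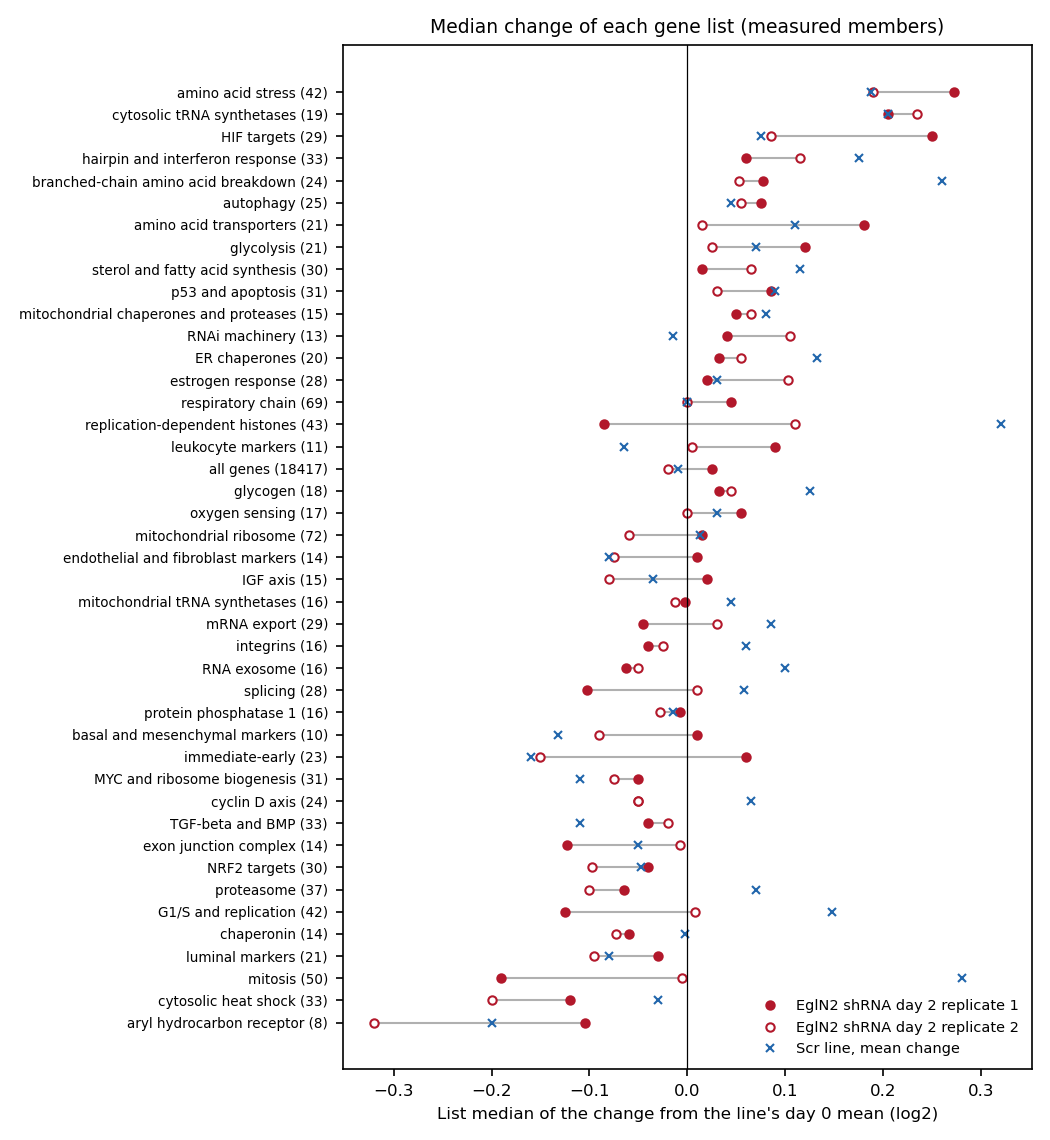
Median change from the line's day 0 mean (log2, x axis) of each gene list, with the number of measured genes in parentheses, as filled and open circles for day 2 replicates 1 and 2 of the EglN2 shRNA line and a cross for the Scr line's mean change. Amino acid stress and the cytosolic synthetases lie at the top with circles and cross close together, and mitosis has its circles at -0.19 and -0.005 and its cross at 0.28.

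The difference between the changes of the lines passed its test for 0 probe sets (limma, smallest adjusted p = 0.165), while 1511 probe sets (7.12%) had an unadjusted p under 0.05. On the negative side ALYREF was followed by PPM1K, AGK, ARL15, UBXN2A, GCH1, BCKDK, DNAJC10 and CAPZA1, among the probe sets that also had an unadjusted p under 0.05 in the EglN2 shRNA line. AGK, a mitochondrial lipid kinase, read 8.97 and 9.08 at day 0, then 8.50 and 8.61 at day 2, where the Scr line gave 8.97 and 8.92 followed by 9.30 and 9.34. GCH1, the first enzyme of tetrahydrobiopterin synthesis, had -0.43 against 0.43. On the positive side the 10 leading genes included dim ones, 5 of them with a mean level under 6. CLDN6, a tight junction protein, read 5.03 and 5.09 at day 0, then 5.27 and 5.50 at day 2, and 5.6 and 5.71 followed by 4.81 and 4.98 in the Scr line. The olfactory receptor OR7D4 and the hair keratin-associated protein KRTAP9-1 had 0.45 and 0.68 here and -0.46 and -0.48 in the Scr line. The Scr line at day 0 was the group with the highest mean for CLDN6, OR7D4 and KRTAP9-1.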

How the data were processed

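Total RNA of 8 samples, 2 in each of 4 groups, was biotin-labelled and hybridised to whole-transcript Affymetrix arrays. The submitters' processing notes name RMA and Affymetrix Expression Console, with which the authors made the deposited log2 level of each probe set. The version is not given in the sources used here, nor is the genome build of the probes. RMA subtracts background, makes the arrays' distributions equal and summarises probes, so a change of all genes in one direction is not visible and low levels are compressed. No counts or depths exist for arrays, and 2 arrays per group limit the precision.

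Of 33297 probe sets, 21214 carry a gene name in the platform's annotation and were tested: 19460 with 1 name and 1754 with several. Of the single names, 19429 were matched by gene ID to RefSeq (GRCh38.p14). A linear model with 1 mean per group was fitted over the 8 arrays (limma 3.58.1, R 4.3.3), which left 4 residual and 5.53 prior degrees of freedom and a median SE of the change of 0.12. Adjusted p-values are Benjamini-Hochberg over the 21214 probe sets, and the threshold was 0.05. An exact permutation test of 2 against 2 arrays cannot go below p = 0.333 and was not used. For gene lists, a gene is represented by its probe set with the highest mean (18417 genes). The members and the 42 lists were chosen with earlier results of these data known.

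Genes are named by rule: EGLN2 and ALYREF; the 20 largest moderated t statistics in each direction among single-gene probe sets whose groups do not overlap; the core genes of each list and up to 8 members with the smallest p; and the 10 largest differences between the lines in each direction among probe sets with an unadjusted p under 0.05. CBS, the shared HSPA1A and HSPA1B probe sets and others given as the ends of a range or as contrasts within a list were chosen after their values were seen. Alternatives were a prior that follows intensity, a robust prior, the 4 arrays alone, a replicate block, all probe sets, single-gene probe sets, a filter on dim probe sets (mean level under 6), median centring, quantile normalization and each array left out. Scripts were tested on simulated data. Figures were drawn with matplotlib 3.10.9.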

Additional observations from a re-analysis of the deposited data

Results flagged for a closer look

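For 17 named genes both arrays moved one way in the EglN2 shRNA line and the opposite way in the Scr line, without overlap between the days in either line. This holds for 1207 of 21214 probe sets (5.69%), the genes were named for a large difference, and limma's test of the difference passed for none of the 17 (adjusted p from 0.472 to 0.652). The difference of the changes (EglN2 shRNA line minus Scr line, log2) was negative for PPM1K (-1.01), UBXN2A (-1), ARL15 (-0.91), BCKDK (-0.89), GCH1 (-0.86), AGK (-0.85) and DNAJC10 (-0.83). It was positive for KRTAP9-1 (1.16), CLDN6 (1.08), OR8G2P (0.93), SMIM5 (0.93), OR7D4 (0.90), TEX52 (0.88), CFAP97D1 (0.85), OR51A7 (0.85), CD8B (0.78) and BATF2 (0.63). The second probe set of CD8B gave a change of 0.04 in the EglN2 shRNA line, and the second of PPM1K gave -0.19 there and 0.26 in the Scr line.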

How the results depend on the processing

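The count of 2 probe sets past the threshold in the EglN2 shRNA line became 0 when its 4 arrays were fitted alone and 0 when probe sets without a gene name were added, and ranged from 0 to 2 with 1 array left out. ALYREF then had changes of -1.29 and -1.26 and adjusted p-values (limma) of 0.198 and 0.0812 in those 2 fits, and ranges of -1.37 to -1.22 and -1.34 to -1.18 with 1 array left out. The EGLN2 change ranged from -0.77 to -0.57 with 1 array left out, with an adjusted p of 0.0585 to 0.808 over all alternatives. Without day 0 replicate 2 the 1 call was SAA1, not ALYREF. A prior that follows intensity gave 6 calls in the Scr line (3 higher and 3 lower) and 2 for the difference between the lines, against 0 and 0. With the replicate number as a block the calls were 13 in the EglN2 shRNA line, 3 higher and 10 lower, among them ITGA5, PYGL, CBS, MPZL3, IGFBP5, HSPH1 and the HSPA1A and HSPA1B probe sets, and 42 in the Scr line, 31 higher and 11 lower. Samples of the same number deviated together with correlations of 0.0981 to 0.271, all positive. No label says what the number marks, so these values cannot settle whether same-numbered arrays are pairs. The main fit did not take them as pairs. The cause of these shifts was not tested, apart from the smaller number of arrays or larger number of probe sets that some of them hold by construction.

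All 57 probe sets named as the target, as a leading change or as a leading difference between the lines kept their sign under every alternative run. For the leading changes the choice itself fixed this when 1 array was left out, because their groups do not overlap. The leading differences had to have an unadjusted p under 0.05 in the same change. Alternatives that alter only the prior, the block or the probe sets tested leave the change itself as it was. The kept signs are therefore no independent support. Of the 42 list medians 24 kept their sign, and 32 lists moved by more than the spread between replicates for at least 1 array left out. With 2 arrays a group, a change under about 2 standard errors, with a median SE of 0.12, could not be told from 0 even before adjustment. Larger changes also missed the adjusted threshold, such as EGLN2 at -0.67 (SE 0.11, limma, adjusted p = 0.134).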

Other observations

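Small nucleolar RNAs, which guide modification of ribosomal and other RNAs, were looked at after their values were seen, because they parted the day 2 arrays of the EglN2 shRNA line. SNORD116-21 read 5.55 on day 2 replicate 1 and 8.14 on replicate 2, and SNORD59B read 5.55 and 7.65. Of 180 probe sets for such RNAs 120 were lower on replicate 1, with a median difference of -0.14. Over all named probe sets 9106 of 21214 were lower there, with a median difference of 0.04. The median difference of these RNAs between replicates was -0.12 at day 0 of the line. In the Scr line it was -0.065 at day 0 and -0.115 at day 2, so the sign was not particular to the day 2 arrays of the EglN2 shRNA line. The median change of these RNAs in the EglN2 shRNA line was 0.02.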
